A study of Mus musculus with 6 samples.

Results

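Interleukin 6 (IL6), gp130 and STAT3 signalling was followed through 10 transcripts in injured mouse liver: the ligands Il6 and Osm, the receptor chains Il6ra, Il6st, Osmr and Lifr, the transcription factor Stat3, the inhibitors Socs1 and Socs3, and the target kinase Pim1. The members were chosen by gene symbol from the pathway, and all 10 were found among the 24346 genes of the deposited expression table. The study asked what the loss of Med23, a subunit of the Mediator complex that links transcription factors to RNA polymerase II, does to the liver's response to the hepatotoxin carbon tetrachloride (CCl4). Whole-liver RNA was sequenced from 3 control mice that carried floxed Med23 alleles (med23f/f, labelled wt) and from 3 mice in which an Albumin-cre transgene deleted the floxed gene in hepatocytes (med23Δli, labelled med23 ko). All 6 were male C57/BL6 mice, 8 weeks of age, and every mouse, the controls included, had received CCl4 at 0.6 μl per g of body weight by intraperitoneal injection 24 h earlier, so that no uninjured liver was compared here. Each library came from 1 mouse. The Albumin promoter drives Cre in hepatocytes, so that the endothelial, immune and stellate cells of the same livers were not its target.

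IL6 binds its receptor IL6RA, on the cell or shed in soluble form, and the complex engages gp130, the signalling chain encoded by Il6st. Oncostatin M (Osm) and leukaemia inhibitory factor use the same gp130 chain paired with OSMR or LIFR. Engaged gp130 activates Janus kinases, which phosphorylate STAT3, and STAT3 enters the nucleus and switches on acute phase genes of the hepatocyte together with Socs3, which shuts the receptor down. In the liver this route is known for driving the acute phase response and for helping hepatocytes survive injury and regenerate. STAT3 is controlled largely by phosphorylation, which RNA levels do not show.

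Of the 10 members, 8 had a mean of at least 0.5 FPKM (fragments per kilobase of transcript and mapped library, a level scaled for transcript length and sequencing depth) over the 6 libraries and were tested. Pim1 was the single member called, that is, past a 2-fold difference with an adjusted p below 0.05 in limma, and it was 2.78-fold higher in med23Δli livers. None was called lower, and at an unadjusted p below 0.05 2 were higher, Pim1 and Lifr, and 0 lower. Of all 11956 genes tested, 4.45% were called higher and 3.45% were called lower. At an adjusted p below 0.05 alone the members again gave Pim1 only, where 11.6% of all genes were higher and 9.48% were lower. The libraries of both groups did not overlap for 2 of the 8 members, Pim1 and Il6st, both higher in med23Δli, and for none in the other direction, against 23.3% and 20.4% of all genes. The median log2 fold change was 0.23 over the 8 members and 0.02 over all genes tested.

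The transcript of the deleted gene did not separate the groups. Med23 was at 3.42, 2.97 and 4.14 FPKM in med23f/f and at 3.40, 3.40 and 2.91 FPKM in med23Δli (log2 fold change −0.10, adjusted p = 0.685, limma), so that every direction given here rests on the labels. Read totals cannot be had from FPKM. The 10 most abundant genes took 17.1% to 20.3% of the summed FPKM in med23f/f and 11.9% to 13.7% in med23Δli. Among marker lists, all 7 liver endothelial markers were lower in med23Δli with an adjusted p below 0.05, and their summed level went from 90.1 to 130 FPKM in med23f/f to 49.2 to 52.9 FPKM in med23Δli. Of 8 hepatocyte markers 1 was lower at that threshold, and of 8 stellate cell markers 1 was lower. None of 10 macrophage, 5 tested neutrophil, 5 bile duct, 3 tested adipose and 2 tested red cell markers passed. At an unadjusted p below 0.05 (limma), 1 hepatocyte marker was higher and 3 were lower. For stellate cell markers 1 was higher and 2 were lower, and for macrophage markers also 1 was higher and 2 were lower. There, 3 neutrophil markers were lower, and no bile duct, adipose or red cell marker passed. The 8 markers of T and NK cells and the 4 of B cells all had means under 0.5 FPKM over the libraries. The summed neutrophil markers ranged from 43.5 to 137 FPKM in med23f/f and from 41.2 to 101 FPKM in med23Δli. The med23Δli replicate 2 library stood apart by adipose transcripts, with 214 FPKM summed over 8 adipose markers against 23.8 to 67.1 FPKM in the other libraries, with Adipoq at 5.65 FPKM and Ucp1 at 2.29 FPKM there and at or near 0 in the rest. The part of these cell types in the results below was not tested.

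Il6 itself (mm10 chr5:30013114-30019981, plus strand) was close to the floor of the measurement. It was listed at 0.0818, 0 and 0 FPKM in med23f/f and at 0, 0.143 and 0.107 FPKM in med23Δli. Osm, a related cytokine made mainly by myeloid cells (mm10 chr11:4236420-4241026, plus strand), was at 0.0643, 0.154 and 0.0896 FPKM in med23f/f and at 0.262, 0.149 and 0.0871 FPKM in med23Δli. Both ligands overlapped between the groups, lay under the 0.5 FPKM filter and were not tested. Among 9 other ligands of the family, 4 could be tested and none passed, at an unadjusted p either (limma). The best represented were Clcf1, a cytokine that signals through the ciliary neurotrophic factor receptor, with means of 5.54 ± 1.82 and 4.74 ± 0.372 FPKM (SD, n = 3), and Ctf1 (cardiotrophin 1), with means of 2.73 ± 0.448 and 3.61 ± 0.745 FPKM (SD, n = 3), in med23f/f and med23Δli. On this length-scaled scale both were above Il6 and Osm in every library.

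The levels of the members followed much the same order in both groups. Stat3 was at the top with means of 43.4 FPKM in med23f/f and 54.0 FPKM in med23Δli, Il6st and Lifr came next, Socs3 followed, and Il6ra, Osmr, Socs1, Osm and Il6 closed the order. Neighbouring genes whose libraries overlapped within both groups were Osmr with Socs1 and Osm with Il6. Il6st and Lifr overlapped in med23f/f only, and Lifr stood above Il6st in all 3 med23Δli libraries. Stat3 overlapped with Lifr in both groups, though Il6st came between them by mean level in med23f/f. Pim1 overlapped with Il6ra in med23f/f and with Socs3 in med23Δli.

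**Figure D1:**
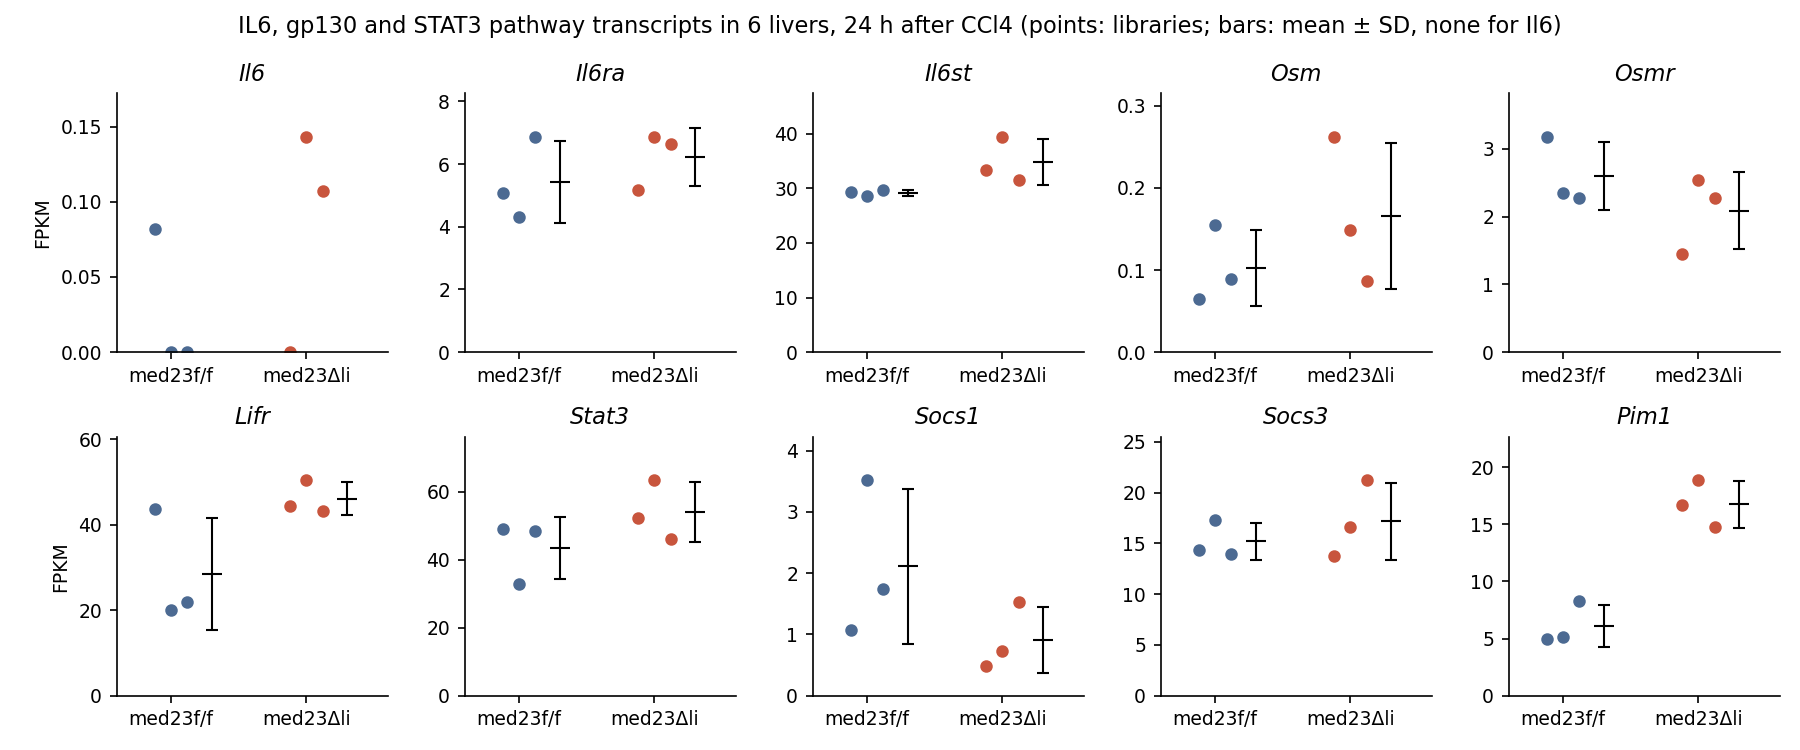
FPKM (y axis, each panel on its own scale from 0) of the 10 members in the 3 med23f/f and 3 med23Δli libraries, with points for libraries and bars for mean ± SD (no bars for Il6, which was listed at 0 in 3 libraries). Pim1 lies between 4.92 and 8.25 FPKM in med23f/f and between 14.8 and 18.9 FPKM in med23Δli, while the other panels overlap except for Il6st.

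The receptor chains were carried mostly by the shared signalling chain and by Lifr. Il6st (gp130, mm10 chr13:112464070-112510086, plus strand) was at 29.2, 28.6 and 29.6 FPKM in med23f/f and at 33.4, 39.4 and 31.5 FPKM in med23Δli. All 3 med23Δli libraries lay above the controls, yet the difference was small, with a log2 fold change of 0.25 (SE 0.13, 95% interval −0.06 to 0.55) and an adjusted p of 0.207 (limma). Il6ra, the ligand-binding chain (mm10 chr3:89864059-89913196, minus strand), was at 5.08, 4.31 and 6.86 FPKM in med23f/f and at 5.16, 6.88 and 6.65 FPKM in med23Δli. These libraries were interleaved, and the log2 fold change of 0.21 (95% interval −0.26 to 0.68) did not pass (adjusted p = 0.472, limma). At its 5′ end 281 bases overlap Gm42809 on the opposite strand.

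Lifr, the partner of gp130 for leukaemia inhibitory factor (mm10 chr15:7090614-7197489, plus strand), was at 43.7, 20.1 and 21.8 FPKM in med23f/f and at 44.5, 50.5 and 43.3 FPKM in med23Δli. The first control library sat among the med23Δli livers and the other two lay far below. Over all libraries the log2 fold change was 0.78 (SE 0.28, 95% interval 0.14 to 1.42) with an adjusted p of 0.0813 (limma), and Lifr was not called. Without med23f/f replicate 1 it was 1.13 with an adjusted p of 0.00869 (limma), so that the lack of a call rested on that library. Osmr, which pairs with gp130 to bind oncostatin M (mm10 chr15:6813577-6874969, minus strand), was at 3.18, 2.34 and 2.27 FPKM in med23f/f and at 1.45, 2.54 and 2.28 FPKM in med23Δli. It overlapped between the groups, with a log2 fold change of −0.32 (95% interval −0.89 to 0.25, adjusted p = 0.369, limma).

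Taken within each library, the balance between both partner chains shifted without overlap. The log2 ratio of Osmr to Lifr was −3.74, −3.05 and −3.21 in med23f/f and −4.85, −4.26 and −4.19 in med23Δli, a difference of −1.10. Every med23Δli library was below every control library, and the exact two-sided permutation test gave p = 0.1, the smallest that 3 against 3 libraries allow. As a share of the summed FPKM of the 4 receptor chains, Osmr made up 3.92%, 4.23% and 3.75% in med23f/f and 1.72%, 2.56% and 2.72% in med23Δli. The Lifr share was 53.8%, 36.3% and 36.0% in med23f/f and 52.7%, 50.8% and 51.7% in med23Δli, again with control replicate 1 among the med23Δli values. In whole liver, fewer cells of a type and less RNA per cell cannot be told apart, and this holds for each difference given here.

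Of 8 other receptor chains and proteins that shed receptors, 7 were tested and 3 passed an adjusted p of 0.05, 1 higher (14.3%, against 11.6% of all genes) and 2 lower (28.6%, against 9.48%), none of them by 2-fold. Il11ra1, the binding chain for IL11, fell from 23.2, 21.4 and 16.0 FPKM to 13.3, 13.5 and 13.1 FPKM (log2 fold change −0.58, adjusted p = 0.0388, limma). The groups were apart, with every med23Δli library below every control. Rhbdf1 and Rhbdf2 encode the inactive rhomboid proteins that bring the sheddase ADAM17 to the cell surface, where it can release soluble IL6RA, and they moved in opposite directions. Rhbdf1 was lower in med23Δli on the log2 scale (−0.64, adjusted p = 0.0268, limma) and Rhbdf2 was higher by 0.46 (adjusted p = 0.0424, limma), each without overlap. Adam17 itself had means of 8.53 ± 0.866 and 8.93 ± 0.492 FPKM (SD, n = 3) and did not pass (adjusted p = 0.741, limma). All 3 lost the threshold when any med23Δli library was left out, as did Il11ra1 without med23f/f replicate 1 or 2, Rhbdf1 without med23f/f replicate 2 and Rhbdf2 without med23f/f replicate 1 or 3 (adjusted p up to 0.122, 0.0857 and 0.159 over these, limma).

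Stat3 was at 49.1, 32.8 and 48.4 FPKM in med23f/f and at 52.4, 63.4 and 46.1 FPKM in med23Δli. The groups overlapped, with control replicate 2 the lowest and med23Δli replicate 2 the highest, and the log2 fold change was 0.32 (SE 0.20, 95% interval −0.14 to 0.78, adjusted p = 0.269, limma). By Pearson correlation of log2 values over the 6 libraries, the genes most like Stat3 were Scamp1 (r = 0.998), Tanc1 (r = 0.998) and Spast (r = 0.994). The GENCODE models place Stat3 at mm10 chr11:100885098-100939540 on the minus strand, where its last 72 bases overlap Stat5a on the opposite strand, and reads from a kit that does not mark strand cannot be told apart there. Of 10 Janus kinases and other STATs, 9 were tested, and 2 were higher (22.2%, against 11.6% of all genes) and 1 lower (11.1%, against 9.48%) at an adjusted p below 0.05. Tyk2, a Janus kinase used by gp130, was 0.54 higher on the log2 scale (adjusted p = 0.0219, limma), as was Stat5b, the growth hormone responsive factor of hepatocytes, with 0.56 (adjusted p = 0.0391, limma). Stat2, a factor of interferon signalling, was lower with −0.68 (adjusted p = 0.0216, limma). None of the 3 passed once any med23Δli library was left out, nor did Stat5b without med23f/f replicate 1 or 2 (adjusted p for Tyk2, Stat5b and Stat2 up to 0.101, 0.146 and 0.0855, limma). The most abundant of the list, Jak1 and Stat6, had means of 28.9 and 21.2 FPKM in med23f/f and of 30.7 and 23.3 FPKM in med23Δli and did not pass (adjusted p = 0.613 and 0.454, limma).

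The feedback inhibitors gave no called difference. Socs3, which binds gp130 and blocks the attached Janus kinase (mm10 chr11:117966079-117970047, minus strand), was at 14.4, 17.3 and 13.9 FPKM in med23f/f and at 13.7, 16.6 and 21.2 FPKM in med23Δli. Only med23Δli replicate 3 lay above the controls, and the log2 fold change was 0.16 (SE 0.18, 95% interval −0.27 to 0.58, adjusted p = 0.555, limma), an interval that leaves out a 2-fold difference either way. Within a library, the log2 ratio of Socs3 to Stat3 was −1.77, −0.92 and −1.79 in med23f/f and −1.93, −1.93 and −1.11 in med23Δli, which overlap (difference −0.16, exact permutation p = 0.5). The 3 genes most like Socs3 over the 6 libraries were Smyd1 (r = 0.989), Zfp566 (r = 0.980) and Ppp1r1b (r = 0.967), all of them at levels below 3 FPKM.

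Socs1, an inhibitor that acts on the kinases themselves and is also induced by interferons (mm10 chr16:10782240-10785536, minus strand), was at 1.07, 3.52 and 1.75 FPKM in med23f/f and at 0.481, 0.721 and 1.52 FPKM in med23Δli. The highest med23Δli library exceeded the lowest control library, and the log2 fold change of −1.11 (SE 0.49, 95% interval −2.24 to 0.02) did not pass (adjusted p = 0.137, limma). The log2 ratio of Socs1 to Socs3, computed after the values were seen, was −3.62, −2.26 and −2.93 in med23f/f and −4.57, −4.34 and −3.72 in med23Δli. It was lower in each med23Δli library than in each control, by −1.27 on average, and is given as a description with no test. Of 14 other inhibitors, all tested, Socs5 alone had an adjusted p below 0.05 (7.14% lower, against 9.48% of all genes), with 6.40, 4.57 and 3.53 FPKM in med23f/f and 2.51, 2.96 and 2.60 FPKM in med23Δli (log2 fold change −0.79, adjusted p = 0.0420, limma). It did not pass without any 1 of the med23Δli libraries or without control replicate 1 or 2 (adjusted p up to 0.132, limma). Ptpn11, the phosphatase SHP2 that docks on gp130, and Pias4, a member of the family named for inhibiting activated STATs, were the most abundant and had log2 fold changes of 0.02 and 0.01 (adjusted p = 0.923 and 0.980, limma).

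Pim1 encodes a serine/threonine kinase that supports cell survival and whose transcription STAT3 is known to drive. It was at 4.92, 5.16 and 8.25 FPKM in med23f/f and at 16.7, 18.9 and 14.8 FPKM in med23Δli. The groups were far apart, with the lowest med23Δli library well above the highest control. The means rose from 6.11 ± 1.86 to 16.8 ± 2.06 FPKM (SD, n = 3), a log2 fold change of 1.47 (SE 0.21, 95% interval 0.98 to 1.97, adjusted p = 0.00574, limma; exact permutation p = 0.1). Dropping any 1 library kept it between 1.34 and 1.71 on the log2 scale with an adjusted p of at most 0.0282 (limma), also without the med23Δli library that carried adipose transcripts. Pim1 lies at mm10 chr17:29490753-29496112 on the plus strand, and 1173 bases at its 5′ end are shared with Gm26885 on the opposite strand, from which its reads cannot be told apart.

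The 3 PIM kinases did not move together. Pim2, the family member best known from lymphoid cells, was at 8.14, 10.5 and 7.18 FPKM in med23f/f and at 1.99, 1.81 and 1.48 FPKM in med23Δli. It fell in every med23Δli library, with a log2 fold change of −2.22 (SE 0.19, 95% interval −2.65 to −1.78, adjusted p = 0.00119, limma). Pim3 was at 25.0, 29.3 and 31.5 FPKM in med23f/f and at 62.4, 51.5 and 43.7 FPKM in med23Δli, and rose 1.82-fold (log2 fold change 0.87, adjusted p = 0.0132, limma), which is under 2-fold and did not pass without med23Δli replicate 1 or 2 (adjusted p up to 0.0595). In control livers Pim2 was thus near the level of Pim1, and in med23Δli livers it was far below it. The log2 ratio of Pim1 to Pim2, computed after the values were seen, was −0.71, −1.01 and 0.20 in med23f/f and 3.00, 3.31 and 3.23 in med23Δli, a difference of 3.69. As the pair was picked from genes already seen to lie apart in opposite directions, the ratio had to separate the groups and is a description only. Against Stat3, the factor that acts upstream of it, Pim1 also shifted, with log2 ratios of −3.29, −2.65 and −2.54 in med23f/f and −1.65, −1.74 and −1.64 in med23Δli (difference 1.15, likewise computed afterwards and a description only).

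**Figure D2:**
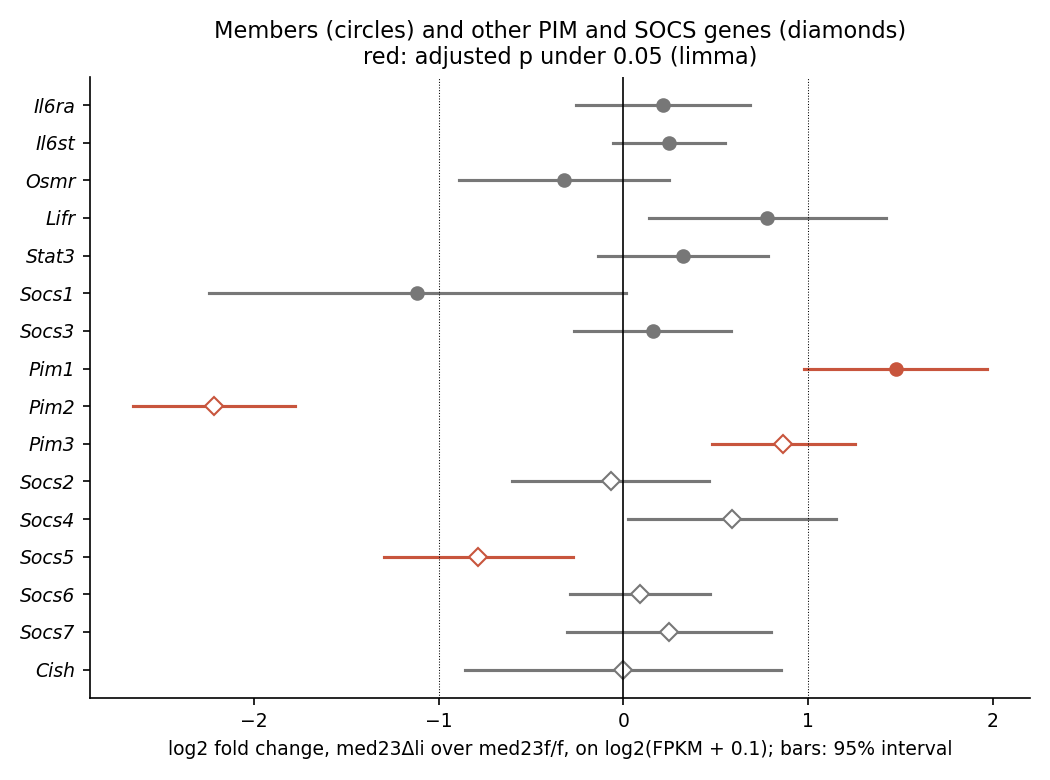
Log2 fold change of med23Δli over med23f/f on log2(FPKM + 0.1) (x axis) with 95% intervals from limma, for the 8 tested members (circles) and the other PIM and SOCS family genes (open diamonds), red where the adjusted p was below 0.05, with dotted lines at 2-fold. Pim1 at 1.47 and Pim2 at −2.22 lie on opposite sides, and Socs5 at −0.79 is the only SOCS gene in red.

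**Figure D3:**
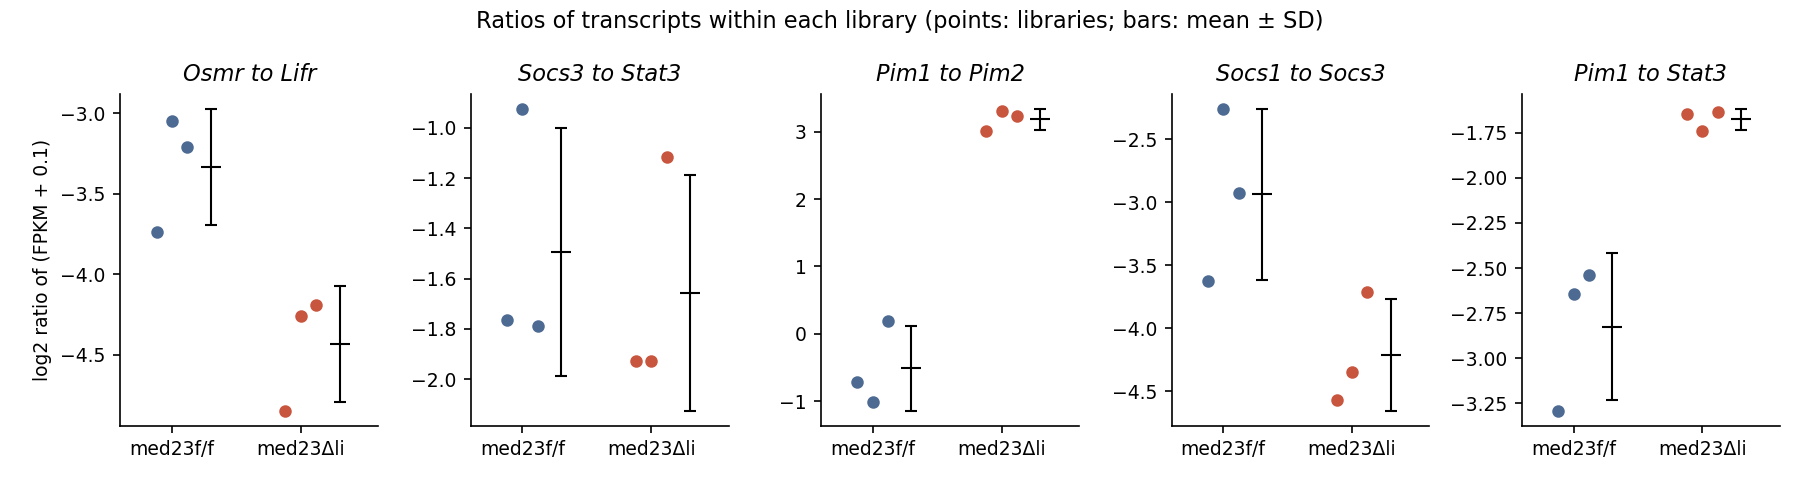
Log2 ratio of one transcript to another within each library (y axis, each panel on its own scale), with points for libraries and bars for mean ± SD. Pim1 to Pim2 goes from between −1.01 and 0.20 in med23f/f to between 3.00 and 3.31 in med23Δli, and Socs3 to Stat3 is the panel in which the groups overlap.

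Since STAT3 is known to drive Socs3 and Pim1, the start regions of the members were searched for its site. RefSeq promoter windows of 300 bases (250 before and 50 after a start, build GRCm38.p6) were at hand for 9 members, Osm not included, as 11 windows. The motif searched was TTCNNNGAA, the palindromic STAT site, which reads the same on both strands, and its tighter form TTCCNGGAA, which is a subset of it. Socs3 was the single member with a match to the first, and none matched the second, where 9.55% and 1.35% of all 27025 genes with a window did (8.30% and 1.15% of all 32851 windows). The Socs3 window (chr11:117969317-117969616) lies wholly before the GENCODE start of the coding transcript (117969186), so the bases just before that start were not searched. The match starts 154 bases before the RefSeq start and 334 bases before the GENCODE start. It is shown with 24 bases on either side, motif in capitals, from chr11:117969488-117969544 on the minus strand, in the sense of the gene.
Socs3: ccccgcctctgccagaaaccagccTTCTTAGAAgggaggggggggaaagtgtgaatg
Of the 3 PIM relatives, Pim2 fell while Pim1 and Pim3 rose. For each of these genes, the 60 bases that end just before its first annotated base are given. They come from chr17:29490693-29490752, chrX:7878202-7878261 and chr15:88862126-88862185, all on the plus strand.
Pim1: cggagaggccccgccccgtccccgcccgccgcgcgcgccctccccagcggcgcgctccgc
Pim2: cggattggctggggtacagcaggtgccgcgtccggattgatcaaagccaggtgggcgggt
Pim3: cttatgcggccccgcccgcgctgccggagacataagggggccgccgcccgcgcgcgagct
Neither form of the motif was in a Pim1, Pim2 or Pim3 window. The share of G and C in the 300 bases was 81.3% for Pim1, 62.7% for Pim2, 69.0% for Pim3 and 73.3% for Socs3, where the median of all windows was 52.7%. A match describes letters only, and its absence says nothing of binding elsewhere.

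The other genes of the pathway, Pim2 and Pim3 among them, went both ways. Over all 6 lists, from ligands and receptor chains to genes that respond to STAT3, 73 of 81 were tested, 3 were called higher (4.11%) and 3 lower (4.11%), and 9 were higher (12.3%) and 8 lower (11.0%) at an adjusted p below 0.05. These shares are close to those of all genes given above. The median log2 fold change over the lists was −0.07.

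Among 18 regulators that respond to STAT3, all tested, Nfil3 was called higher and Pim2 lower (5.56% each, against 4.45% and 3.45% of all genes). At an adjusted p below 0.05 4 were higher (22.2%, against 11.6%) and 2 lower (11.1%, against 9.48%), Pim2 and Pim3 included. Nfil3, a basic leucine zipper repressor of the liver clock, went from 25.2, 16.3 and 29.1 FPKM to 53.4, 53.4 and 57.0 FPKM (log2 fold change 1.25, adjusted p = 0.00855, limma), with no overlap and under every alternative. The most abundant of the list, Cebpb, a factor of the acute phase and of regeneration, and Mcl1, a survival protein of the BCL2 family, were higher at log2 fold changes of 0.73 and 0.75 (adjusted p = 0.0479 and 0.0433, limma). Il4ra, the IL4 receptor chain, was lower with −0.51 (adjusted p = 0.0364, limma). Cebpb, Mcl1 and Il4ra no longer passed once any med23Δli library, or med23f/f replicate 1 or 2, was left out (adjusted p up to 0.147, 0.143 and 0.118, limma). Bcl6, a repressor named after its values were seen, had a log2 fold change of 1.45 and did not pass (adjusted p = 0.160, limma), with control replicate 1 at 10.9 FPKM among the med23Δli livers at 7.69, 17.1 and 6.71 FPKM and the other controls at 1.37 and 2.67 FPKM. Without that library Bcl6 passed, at 2.27 on the log2 scale (adjusted p = 0.0260, limma). Control replicate 1 lay among the med23Δli livers for Lifr too.

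The acute phase genes are the hepatocyte's main output of this pathway. Of 22 listed, 21 were tested, 2 were called lower (9.52%, against 3.45% of all genes) and 2 higher (9.52%, against 4.45%). The same 4 were those with an adjusted p below 0.05, where 9.48% of all genes were lower and 11.6% higher. The groups did not overlap for 6 that were lower (28.6%, against 20.4% of all genes) and 2 that were higher (9.52%, against 23.3%). Saa3, a serum amyloid A gene, was at 334, 687 and 354 FPKM in med23f/f and at 61.2, 121 and 129 FPKM in med23Δli. It fell without overlap (log2 fold change −2.13, adjusted p = 0.00847, limma). Serpina3n, a protease inhibitor of the acute phase, fell from 409, 864 and 1062 FPKM to 165, 384 and 328 FPKM (log2 fold change −1.39, adjusted p = 0.0488, limma). Saa3 passed with any library left out, and Serpina3n did not without med23f/f replicate 2 or 3 or any 1 of the med23Δli libraries (adjusted p up to 0.139, limma).

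Steap4, a metalloreductase induced by inflammatory cytokines, rose from 38.5, 30.0 and 32.7 FPKM to 51.4, 117 and 127 FPKM (log2 fold change 1.44, adjusted p = 0.0206, limma). Il1rn, the antagonist of the IL1 receptor, rose from 12.2, 4.73 and 12.9 FPKM to 22.3, 23.0 and 18.9 FPKM (log2 fold change 1.22, adjusted p = 0.0446, limma). Both were higher in every med23Δli library than in every control. Steap4 did not pass without med23f/f replicate 2 or med23Δli replicate 2 or 3 (adjusted p up to 0.0732, limma), nor Il1rn without med23f/f replicate 1 or any 1 of the med23Δli libraries (up to 0.121). Without med23f/f replicate 2 Il1rn was at 0.76 on the log2 scale, under 2-fold. The most abundant acute phase genes, Saa1 and Saa2, whose near-identical sequences can share reads, did not pass. Saa1 was at 12620, 12480 and 23880 FPKM in med23f/f and at 2472, 7174 and 10290 FPKM in med23Δli, without overlap (log2 fold change −1.45, adjusted p = 0.0773, limma), and Saa2 had −1.56 (adjusted p = 0.0874, limma). Without med23Δli replicate 1, the lowest library for both, these were −0.86 and −0.88, under 2-fold. The list summed to 62070 to 87440 FPKM in med23f/f and to 27110 to 55740 FPKM in med23Δli, a sum that follows the most abundant genes of the list. Fga, the fibrinogen alpha chain, had means of 2714 ± 688 and 2419 ± 443 FPKM (SD, n = 3) and did not pass (adjusted p = 0.667, limma). The median log2 fold change of the list was −0.35.

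**Figure D4:**
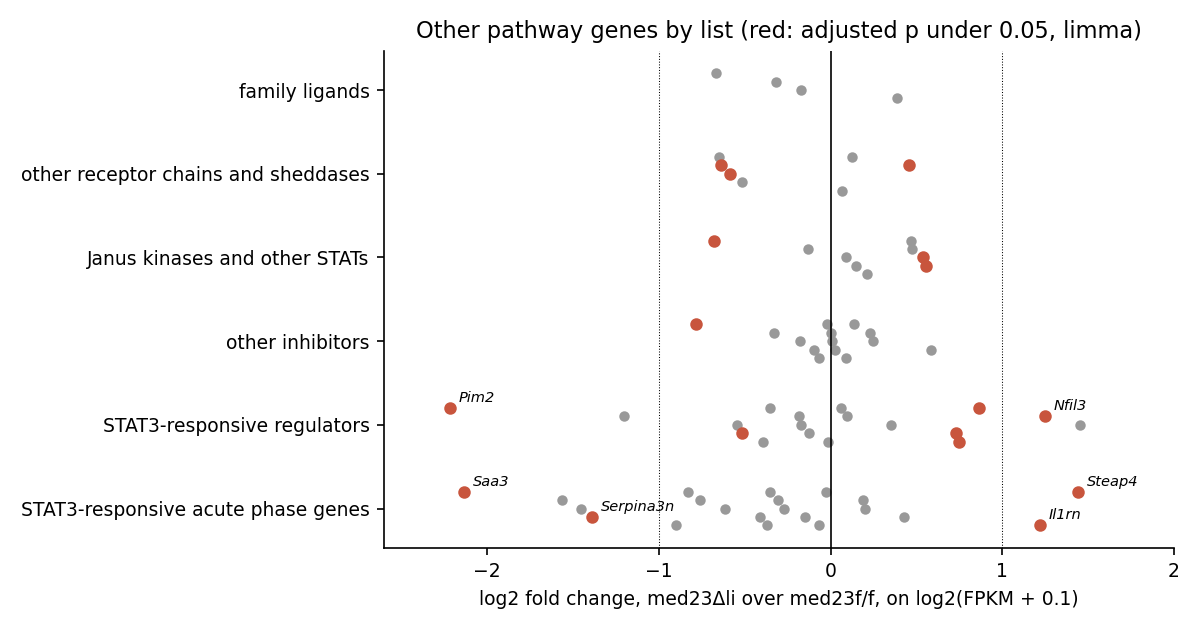
Log2 fold change of med23Δli over med23f/f on log2(FPKM + 0.1) (x axis) for the 73 tested genes of 6 pathway lists (rows), 1 point per gene with a vertical offset for legibility, red where the limma adjusted p was below 0.05, dotted lines at 2-fold and names on called genes. Called genes lie on both sides, from Pim2 at −2.22 to Steap4 at 1.44, and none falls in the first 4 lists.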

How the data were processed

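RNA-seq was made from 6 whole livers, 3 per group (TruSeq v2, paired-end). Per the labels and the study's methods, the authors trimmed adapters, checked reads with FastQC, aligned to mm10 with TopHat and computed FPKM with Cuffdiff. Versions, annotation and options are not given in the sources used here. The deposited table holds FPKM per gene and library, and also the authors' group means, fold changes, p and q values, which were not used. FPKM keeps no counts, so depth and counting error are unknown.

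Here, log2(FPKM + 0.1) was fitted for the 11956 genes that averaged 0.5 FPKM or more, with limma 3.58.1 in R 4.3.3 (lmFit, eBayes with trend, all 6 libraries, no covariate), and p-values were adjusted by Benjamini-Hochberg over all of them. Fold changes are on this scale, which understates the change of low genes. Called means over 2-fold with an adjusted p below 0.05. The ratios of Osmr to Lifr and of Socs3 to Stat3 were compared by exact two-sided permutation tests (computed with numpy 2.4.6), which cannot go below 0.1. The fit was tested on simulated data with known changes. Group and replicate came from sample titles. The members and lists were chosen with earlier results of these data known. The text names the members, Med23, the called genes (at most 6) and the 2 most abundant of each list, and the 3 genes most like Socs3 and Stat3. Other listed genes with an adjusted p below 0.05, and Adam17, Bcl6, Fos and Fga, were named after their values were seen, as were the ratios of Pim1 to Pim2, Socs1 to Socs3 and Pim1 to Stat3. Alternatives were other pseudocounts, filters, scalings and variance models, a replicate block, and leaving out each library. Gene positions are from GENCODE on mm10.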

Additional observations from a re-analysis of the deposited data

How the results depend on the processing

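Of the 8 tested members, 7 stayed on their side of the thresholds under all 15 alternatives. The exception was Lifr. With single libraries left out, 1 to 2 members were called and 1 to 2 had an adjusted p below 0.05 (limma), 2 without med23f/f replicate 1. Against 6 other pathway genes called, 3 to 6 were called with single libraries left out, 3 without med23Δli replicate 2 or 3. Of the 6 themselves 3 to 5 kept the call then, while Bcl6 was gained without med23f/f replicate 1 and Fos without med23f/f replicate 2. The count without a filter, without a variance trend or with robust fitting was 4 each. The 17 pathway genes with an adjusted p below 0.05 became 9 without a filter, 10 without a variance trend and 3 to 17 with single libraries left out, lowest without med23Δli replicate 2, and 3 of the 17 (Pim2, Saa3 and Nfil3) passed under all alternatives. Counts over all genes moved as well, from 2517 with an adjusted p below 0.05 (21.1%) to 1905 without a filter (10.7%), 2305 without a variance trend (19.3%), 1423 with the replicate block (11.9%), and 750 (6.27%), 929 (7.77%) and 990 (8.28%) without med23Δli replicates 1, 2 and 3. All genes called went from 944 (7.90%) to 830 (6.94%) with the block, 600 (5.02%) at a pseudocount of 1 and 587 (4.91%) without med23Δli replicate 1. Both counts were highest without med23f/f replicate 3, at 3179 (26.6%) with an adjusted p below 0.05 and 1259 (10.5%) called. Serpina3n and Il1rn each lost the call under 9 of 15 alternatives and Steap4 under 3. With the replicate block, 11 pathway genes had an adjusted p below 0.05 and 7 were called. Same-numbered libraries correlated at −0.02, −0.05 and −0.12 in their deviations from the group means, so the numbers were not taken to pair the mice. Under that block Saa1 and Saa2 were called and Il1rn was not. The causes of these shifts were not tested. FPKM gives no depth, so no limit can be set for Il6 or Osm.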
